A study of Rattus norvegicus with 30 samples.

Results

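The 9 genes described here are Nfe2l2, which encodes the transcription factor NRF2, and 8 genes of its antioxidant program, namely Gclc, Gclm, Gpx2, Gsr, Txnrd1, Srxn1, Nqo1 and Hmox1. They were found among the 31099 probe sets of a rat whole-genome expression array as the 13 probe sets annotated to 1 of these genes alone. Where a gene had several, the one whose signal averaged highest over the 30 arrays was used, and the 4 dimmer ones, which belong to 3 of the genes, served as a check. All 9 genes passed the filter on low values and were among the 10222 genes tested.

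The study asked how methapyrilene, an antihistamine withdrawn because it causes liver tumours in rats, alters RNA levels in hepatocytes. Frozen hepatocytes of male Sprague Dawley rats, bought from a supplier, were thawed and cultured, and on day 3 of culture received DMSO as the vehicle, 3 uM methapyrilene or 100 uM methapyrilene. RNA was taken 24 or 48 h later, which gave 6 groups of 5 wells with 1 array each, so n = 5 in every group named below. The DMSO share is labelled as 1%, but the protocol uses that figure for the concentrated dosing solution, and how much reached the medium is unclear. Vehicle was common to all 6 groups. The wells are called independent cultures and no animals are named, so p-values measure the spread between wells and not between rats, and untreated hepatocytes without DMSO were not analysed here.

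NRF2 is held in the cytoplasm and sent for degradation by KEAP1, a sensor of electrophiles and oxidants that works through a CUL3 ubiquitin ligase. When KEAP1 is modified, NRF2 accumulates, enters the nucleus, pairs with a small MAF protein (MAFF, MAFG or MAFK) and binds the antioxidant response element near its target genes, from which the repressor BACH1 is displaced. In hepatocytes this program supplies glutathione, the cell's main small thiol, along with enzymes that reduce peroxides, quinones and protein thiols.

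The promoters of Gclm, Gpx2, Txnrd1 and Srxn1 are shown because each holds a sequence of the response element's form inside the letters printed. The core searched was TGACNNNGC, on both strands, and a variant with G at the fourth base, TGAGNNNGC, was searched as well. The sequences are RefSeq's, on build GRCr8, 5′ to 3′ in the direction of the gene and ending at the annotated start, except that of Srxn1, which runs a few bases past the start so that its last match is whole. Capitals mark the matches.
Gclm, chr2:213031885-213032134, plus strand: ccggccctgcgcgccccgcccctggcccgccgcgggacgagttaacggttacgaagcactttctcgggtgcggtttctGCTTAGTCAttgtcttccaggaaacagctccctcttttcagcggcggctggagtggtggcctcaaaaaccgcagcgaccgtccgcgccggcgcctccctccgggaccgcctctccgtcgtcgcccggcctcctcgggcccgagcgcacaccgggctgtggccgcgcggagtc
Gpx2, chr6:101230034-101230283, minus strand: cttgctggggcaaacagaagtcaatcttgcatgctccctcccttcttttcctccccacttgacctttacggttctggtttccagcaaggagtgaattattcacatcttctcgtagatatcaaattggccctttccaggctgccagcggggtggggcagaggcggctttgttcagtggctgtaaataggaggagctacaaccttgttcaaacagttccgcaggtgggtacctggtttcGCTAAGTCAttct
Txnrd1, chr7:22755905-22756154, minus strand: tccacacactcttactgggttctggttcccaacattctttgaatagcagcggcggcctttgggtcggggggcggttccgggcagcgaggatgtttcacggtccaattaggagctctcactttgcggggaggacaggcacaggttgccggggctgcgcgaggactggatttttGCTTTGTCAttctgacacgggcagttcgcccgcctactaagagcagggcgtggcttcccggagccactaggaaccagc
Srxn1, chr3:161064562-161064815, plus strand: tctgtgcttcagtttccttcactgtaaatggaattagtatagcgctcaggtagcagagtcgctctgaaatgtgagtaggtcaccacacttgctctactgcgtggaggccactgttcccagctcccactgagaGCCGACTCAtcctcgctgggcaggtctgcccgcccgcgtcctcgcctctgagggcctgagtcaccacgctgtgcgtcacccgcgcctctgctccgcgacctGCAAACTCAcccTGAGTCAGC

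Read on the opposite strand, the Gclm match is TGACTAAGC, the Gpx2 match TGACTTAGC and the Txnrd1 match TGACAAAGC. Their first printed bases lie at -172, -13 and -78 from the start. The Srxn1 promoter held the variant core only, at -118, -17 and -5. Promoter windows were found for 7 of the 9 genes, 8 windows in all because Txnrd1 had another one. Nfe2l2 held the core only after its start, at position 39, and the windows of Gclc, Nqo1 and the other Txnrd1 start held neither form. Of 33469 rat promoter windows of 300 bases, 12.1% held the core and 17.2% the variant, and 10.1% and 14.2% did so within the 250 bases before the start. A match is a string of letters and not a binding site, and no match says only that these letters are not in the window.

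The deposited values are MAS5 signals on a linear scale, with array medians of 362 to 471. The 9 genes were bright: their probe sets exceeded the median of all 30 arrays, and on average 93.5% to 98.9% of an array's probe sets were dimmer. Of 6 hepatocyte markers 5 had a probe set annotated to that gene alone (Alb, Apoa1, Ttr, Serpina1 and Fgb). All 5 lay above the median of every array, with a summed signal of 264723 to 423950 over the 30 arrays. Against DMSO at 100 uM, 1 of these 5 was called lower at 24 h (Fgb, -0.35 on the log2 scale) and 0 at 48 h. Of 8 markers of Kupffer cells and leukocytes 5 were tested. Cd68, which hepatocytes can also express in lysosomes, was higher at 100 uM (0.86 at 24 h and 1.65 at 48 h), while Lyz2 was lower (-0.29 and -0.21) and Cd163 and Ptprc exceeded the median of 0 arrays. The summed signal of this marker list was 9549 to 10366 at 100 uM and 8815 to 10711 in DMSO at 24 h, and 9372 to 11064 at 100 uM and 9248 to 9932 in DMSO at 48 h. Lyz2, with a mean signal of 7343 over the 30 arrays against 1208 for Cd68, made up most of this sum. Of 5 cholangiocyte markers 2 were tested. Epcam was higher at 24 h (0.15) and lower at 48 h (-0.15), and Krt19 was lower at 48 h (-1.49 ± 0.44 (SE)). Krt19 was dim, with a mean signal of 259, and exceeded the median on 5 of the 30 arrays. Krt7 and Spp1 exceeded the median of 0 arrays. The summed signal of the cholangiocyte list was 10878 to 11826 at 100 uM and 9738 to 10838 in DMSO at 24 h, and 10861 to 11777 at 100 uM and 12373 to 13449 in DMSO at 48 h. Epcam, with a mean signal of 11002 over the 30 arrays, made up nearly all of this sum. Of 6 stellate cell markers 3 were tested, and Des was higher at 48 h (0.58), with sums of 2347 to 2888 at 100 uM and 1996 to 2552 in DMSO at 24 h, and 2454 to 3077 at 100 uM and 2030.3 to 2742 in DMSO at 48 h. The 1 sinusoidal endothelial marker tested, Kdr, was not called (0.043 and 0.010). The part of other cell types in the results was not tested. In such bulk samples fewer cells of a type and less RNA per cell cannot be told apart.

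Some arrays stood apart. In replicates 1, 2 and 3 of 3 uM at 24 h the beta-actin control signal at the 3′ end over that at the 5′ end, a sign of how complete the labelled RNA was, lay between 3.93 and 5.30, against 2.34 to 3.43 on the other 27 arrays. Results of 3 uM at 24 h are given with and without these arrays.

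At 100 uM for 24 h, 7 of the 9 genes were higher than in DMSO and 0 were lower, at an adjusted p under 0.05 in a limma fit over all genes. The same call was made upward for 19.9% of all 10222 genes and either way for 35.7%. The median log2 fold change of the 9 genes was 0.26, beside 0.043 over all genes. At 48 h, 5 of the 9 were higher and 0 lower, where 18.9% of all genes were called higher, 14.5% lower and 33.4% either way, and the medians were 0.23 and 0.049. Without overlap between treated and DMSO wells, 5 of the 9 were higher at 24 h, beside 14.4% of all genes, and 0 were lower, beside 11.9%. At 48 h 5 were higher and 2 lower without overlap, beside 15.8% and 12.1% of all genes. Gpx2 changed most of the 9 and was the one gene of them whose change exceeded 1.5-fold at either time. With each array centred on its median instead, calls over all genes split 1246 higher to 1544 lower at 48 h, in place of 1933 to 1482, and the 9 genes gave 2 higher (Nfe2l2 and Gpx2) and 1 lower (Gsr). At 24 h that scaling left 5 higher, without Nfe2l2 and Txnrd1, beside 1448 higher and 1598 lower over all genes.

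**Figure D1:**
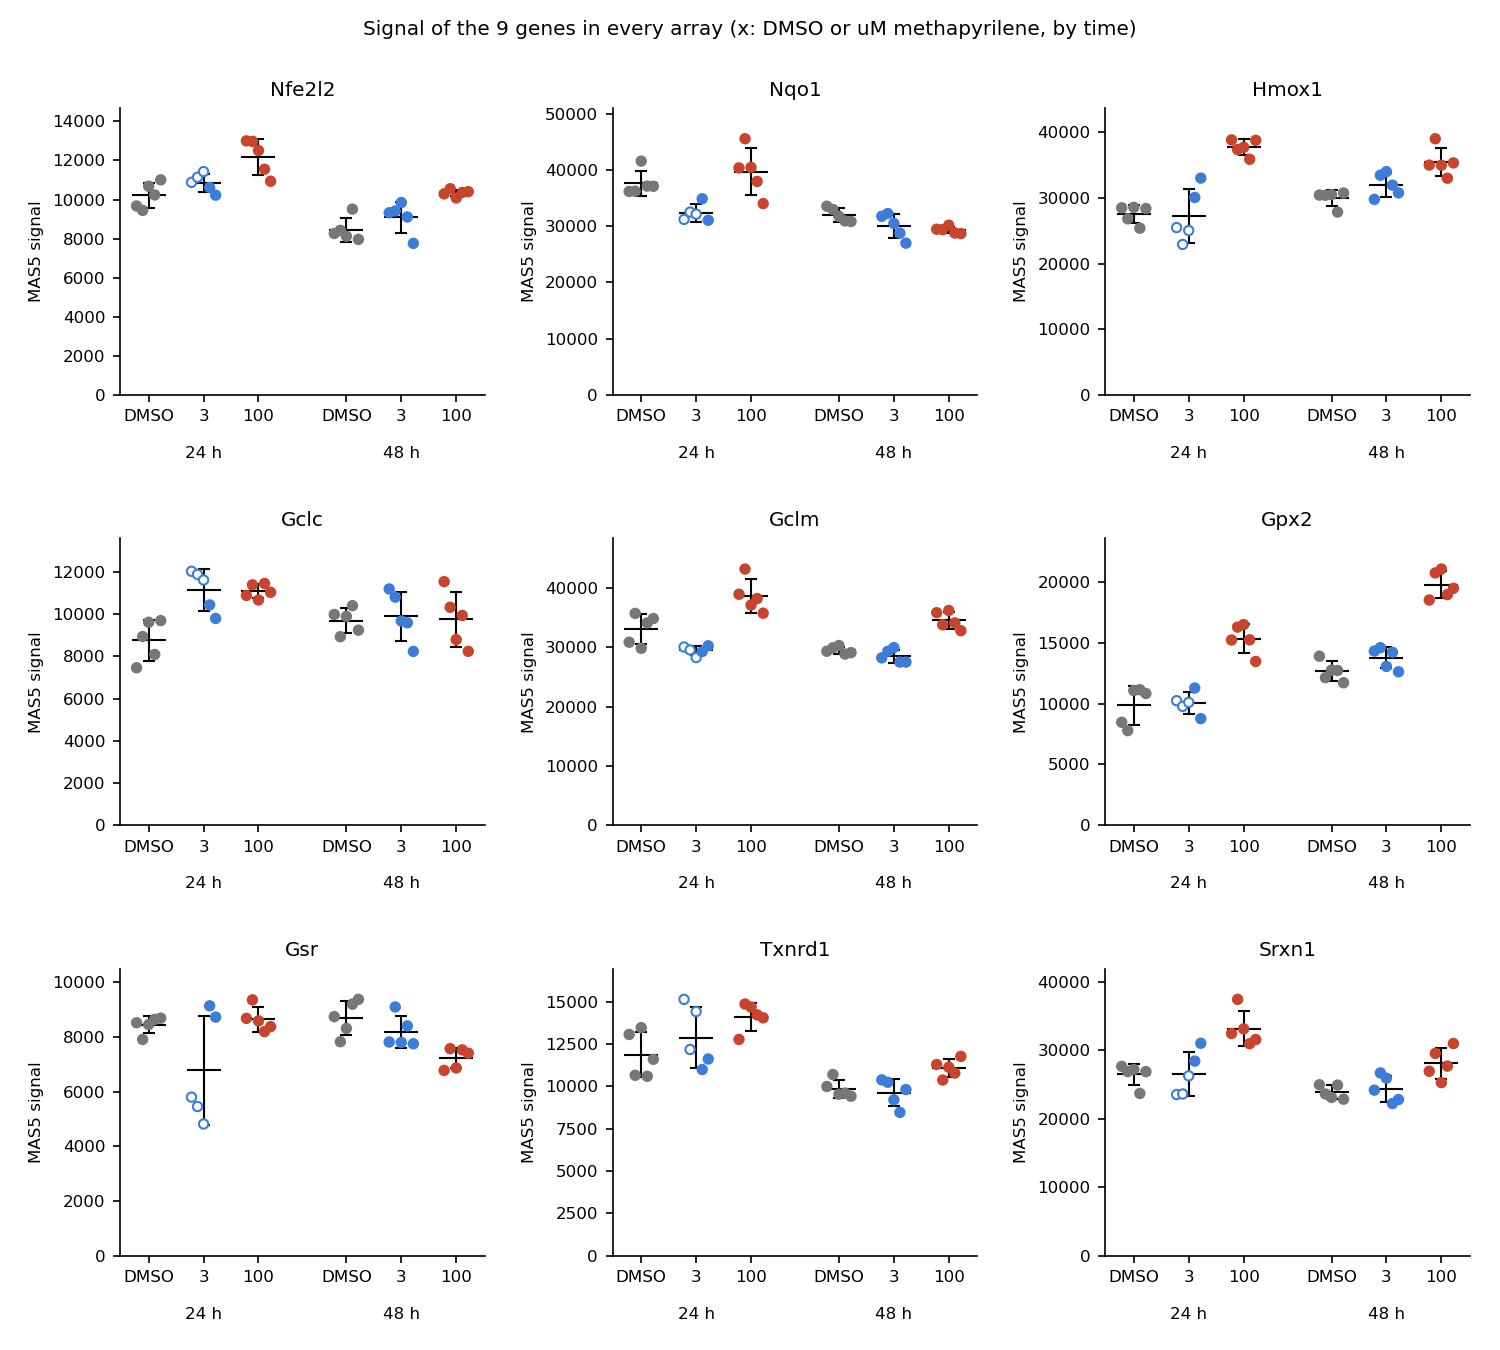
MAS5 signal (linear axis from 0) of the 9 genes in each of the 30 arrays, by dose (DMSO, 3 uM or 100 uM methapyrilene) at 24 h and 48 h; points are arrays, the horizontal bar is the mean and the whiskers 1 SD (n = 5), and open points are replicates 1, 2 and 3 of 3 uM at 24 h. Gpx2 stands highest at 100 uM at both times, and the open points of Gsr lie between 4811 and 5794, below the other 27 arrays.

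Nfe2l2, the regulator itself (probe set 1367826_at), rose at both times, by less than 1.5-fold. At 24 h its signal was 13003, 12978, 12514, 11553 and 10939 at 100 uM, against 9671, 9444, 10682, 10237 and 11010.1 in DMSO. At 48 h it was 10291, 10555, 10084, 10365 and 10405 at 100 uM, against 8263, 8424, 8123, 9511 and 7961 in DMSO. At 24 h 4 of 5 treated wells exceeded all DMSO wells and the groups overlapped, whereas at 48 h all treated wells lay above all DMSO wells. The means were 12197 ± 916 at 100 uM and 10209 ± 659.6 in DMSO at 24 h (SD, n = 5), a log2 fold change of 0.26 ± 0.062 (SE), adjusted p = 0.00121. At 48 h the log2 fold change was 0.29 ± 0.062 (SE), adjusted p = 0.000292. The 24 h call was lost with arrays centred on their median (0.22, adjusted p = 0.0563).

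Glutathione is made in 2 steps, and the first, which sets the rate, is carried out by glutamate-cysteine ligase. Its modifier subunit Gclm rose at both times, while its catalytic subunit Gclc rose at 24 h by the brighter of its probe sets and was not called by the dimmer one. Gclm (1370030_at) had signals of 38976, 43226, 37156, 38250.4 and 35778 at 100 uM for 24 h, against 30881, 35742, 29854, 34138 and 34872 in DMSO. After 48 h its signals were 35864, 33826, 36236, 34136 and 32822 at 100 uM, against 29357, 29947, 30319, 28874 and 29115 in DMSO. At 24 h the lowest treated well lay just above the highest DMSO well, and at 48 h the gap was wider, so the groups did not overlap at either time. Gclm rose, on the log2 scale, by 0.23 ± 0.052 (SE), adjusted p = 0.000810 at 24 h and 0.23 ± 0.052 (SE), adjusted p = 0.000796 at 48 h. Both amount to 1.17-fold. With arrays centred on their median the 48 h call was lost (0.18, adjusted p = 0.0674).

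Gclc (1372523_at), the subunit that holds the active site, gave 10884, 11388, 10668, 11451 and 11033 at 100 uM for 24 h, against 7458, 8938, 9612, 8087 and 9692 in DMSO. All treated wells at 24 h lay above all DMSO wells. The 48 h signals were 11538, 10325, 8792, 9936 and 8237 at 100 uM, against 9982, 8929, 9889, 10399 and 9239.7 in DMSO. Here the treated wells lay both above and below the range of the DMSO wells. The log2 fold change was 0.35 ± 0.084 (SE), adjusted p = 0.00136 at 24 h. At 48 h it was 0.0035 ± 0.084 (SE), adjusted p = 0.982, with a 95% interval -0.17 to 0.18. The change of the effect between the times was -0.34 ± 0.12 (SE), adjusted p = 0.190, which did not pass the test.

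Gpx2 and Gsr both work on glutathione once it is made: Gpx2, a glutathione peroxidase best known from the gut epithelium, uses it to reduce hydroperoxides, and Gsr, glutathione reductase, returns the oxidised form with NADPH. Gpx2 rose at both times and Gsr was called at neither. Gpx2 (1374070_at) read 15222, 16284, 16491, 15239 and 13458 at 100 uM for 24 h, against 8458, 7774, 11065, 11140.1 and 10829.9 in DMSO. For 48 h the values were 18508, 20736, 21055, 18953 and 19474 at 100 uM, against 13892, 12126, 12743, 12716 and 11708 in DMSO. Every treated well exceeded every DMSO well at both times, by a clear margin. Gpx2 averaged 15339 ± 1202 at 100 uM and 9853 ± 1608 in DMSO at 24 h, and 19745 ± 1110.0 at 100 uM and 12637 ± 824 in DMSO at 48 h (SD, n = 5 each). These were increases of 1.57-fold (0.65 ± 0.082 (SE), adjusted p = 9.6e-08, on the log2 scale) and 1.56-fold (0.64 ± 0.082 (SE), adjusted p = 1.3e-07).

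Gsr (1369061_at) had signals of 8676, 9353, 8584, 8192 and 8375 at 100 uM for 24 h, against 8516, 7904, 8450.3, 8639 and 8684 in DMSO, and the groups overlapped. At 48 h they were 6772, 7566, 6861, 7524 and 7401 at 100 uM, against 8739.8, 7823, 8308, 9196 and 9371 in DMSO, and every treated well lay below every DMSO well. Such separation downward was found for 12.1% of all genes at 48 h. Gsr changed by 0.033 ± 0.11 (SE), adjusted p = 0.854 on the log2 scale at 24 h. For 48 h it came to -0.26 ± 0.11 (SE), adjusted p = 0.0567, with a 95% interval -0.48 to -0.045, and with runs of array numbers as a block the adjusted p was 0.0466. The spread in this fit includes the 3 arrays that stood apart, in which Gsr was low. With them left out of the fit, a choice made after seeing the data, Gsr fell at 48 h (adjusted p = 0.000236) and Txnrd1 rose (adjusted p = 0.0390), so that 6 of the 9 genes were higher and 1 lower. At 24 h 7 were higher and 0 lower in that fit. Calls over all genes in that fit are not given here, so these counts have no background beside them.

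Txnrd1 and Srxn1 belong to the thioredoxin and peroxiredoxin side of the program: Txnrd1, cytosolic thioredoxin reductase, keeps thioredoxin reduced, and Srxn1, sulfiredoxin, restores over-oxidised peroxiredoxins. Both rose at 24 h, and Srxn1 also at 48 h. Srxn1 (1372510_at) had 32453, 37441, 33121, 30963 and 31571 at 100 uM for 24 h, against 27649, 26885, 27196, 23686 and 26876 in DMSO. It had 26932, 29543, 25275, 27689 and 30987 at 100 uM for 48 h, against 24959.5, 23612, 23102, 24906 and 22847 in DMSO. Treated wells lay above DMSO wells without overlap at both times, though narrowly at 48 h. On the log2 scale the change was 0.32 ± 0.071 (SE), adjusted p = 0.000457 at 24 h and 0.23 ± 0.071 (SE), adjusted p = 0.0104 at 48 h, and the 48 h call was lost with arrays centred on their median (0.18, adjusted p = 0.162).

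Txnrd1 (1398791_at) showed 12768, 14859, 14682, 14219.6 and 14044 at 100 uM for 24 h, against 13062, 10649.5, 13463, 10590.1 and 11592 in DMSO. For 48 h the signals were 11286, 10368, 11128, 10780.4 and 11765 at 100 uM, against 9986, 10692, 9528, 9595 and 9410.1 in DMSO. The groups overlapped at both times, with 4 of 5 treated wells above all DMSO wells at each. On the log2 scale Txnrd1 changed by 0.25 ± 0.078 (SE), adjusted p = 0.00954 at 24 h, a call lost with arrays centred on their median (0.22, adjusted p = 0.0761). The 48 h value was 0.17 ± 0.078 (SE), adjusted p = 0.0943.

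Nqo1 and Hmox1 are the classic reporters of the program. Hmox1, heme oxygenase, breaks down heme and is repressed by BACH1. Hmox1 (1370080_at) gave 38854, 37386, 37733, 35902 and 38793 at 100 uM for 24 h, against 28508, 26825, 28579.9, 25399 and 28398 in DMSO. After 48 h it gave 35022, 39032, 34995, 33016 and 35346 at 100 uM, against 30450.0, 30422, 30519.8, 27858 and 30763 in DMSO. The treated wells lay above the DMSO wells without overlap at both times. Hmox1 rose 1.37-fold at 24 h (0.46 ± 0.068 (SE), adjusted p = 1.9e-06, on the log2 scale) and 1.18-fold at 48 h (0.24 ± 0.068 (SE), adjusted p = 0.00558). With arrays centred on their median the 48 h call was lost (0.19, adjusted p = 0.113).

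Nqo1 (1387599_a_at), a quinone reductase that is induced through NRF2 in many tissues, was not called at 100 uM at either time. Its signals were 40338, 45521, 40429, 37931 and 33996 at 100 uM for 24 h, against 36158, 36195, 41546, 37102 and 37068 in DMSO. At 48 h they were 29443, 29371, 30162, 28769 and 28671 at 100 uM, against 33531, 32955, 31737, 30913 and 30818 in DMSO. The groups overlapped at 24 h, and at 48 h every treated well lay below every DMSO well by a small margin. Its log2 fold change came to 0.071 ± 0.060 (SE), adjusted p = 0.390 at 24 h, with a 95% interval -0.051 to 0.19. The value at 48 h was -0.13 ± 0.060 (SE), adjusted p = 0.104, with a 95% interval -0.25 to -0.0052. Under 2 of 27 alternatives, with only the compared arrays and with array weights, Nqo1 was called lower at 48 h.

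**Figure D2:**
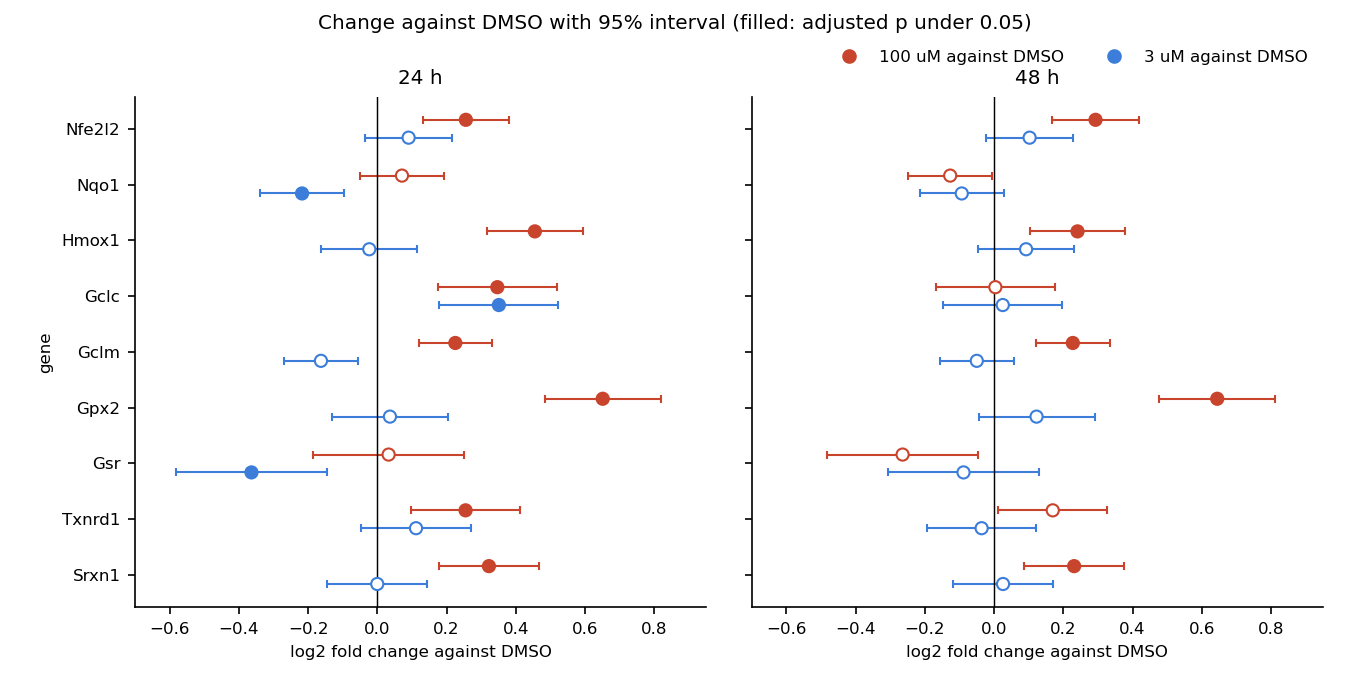
Log2 fold change against DMSO for the 9 genes at 24 h (left) and 48 h (right), with 100 uM in red above 3 uM in blue; bars are 95% intervals from the limma fit, and filled points have an adjusted p under 0.05. At 100 uM 7 points are filled at 24 h and 5 at 48 h, and Gpx2 lies farthest from 0 at both times.

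Array numbers in the sample titles fall into runs of 6 that hold 1 array of every group. Within these 5 runs Hmox1, Gclm, Gpx2 and Srxn1 were higher at 100 uM than in DMSO in 5 of 5 runs at both times. Gclc was higher in 5 of 5 runs at 24 h and in 2 of 5 at 48 h. Nfe2l2 was higher in 4 and 5 of the 5 runs and Txnrd1 in 4 and 4, at 24 and 48 h. Nqo1 and Gsr were each higher in 3 runs at 24 h and lower in 5 at 48 h.

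The 3 genes with more than 1 probe set were read again by the next one. By the next probe set (1386958_at) Txnrd1 rose at both times. It read 8936, 8421, 7470.4, 7854 and 7284 at 100 uM for 24 h, against 6153, 5815, 5393, 5433 and 5939.8 in DMSO. At 48 h it read 5611, 5765, 6653, 6255 and 6517 at 100 uM, against 5227, 4004, 3944, 4489 and 4477 in DMSO. By this probe set the groups did not overlap at either time. Its log2 fold changes were 0.47 ± 0.079 (SE), adjusted p = 1.4e-05, at 24 h and 0.48 ± 0.079 (SE), adjusted p = 1.3e-05, at 48 h, adjusted over 13530 probe sets with 1 gene each.

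For Gclc the dimmer probe set (1370688_at) was not called at 100 uM. Its signals were 3960.5, 3961, 3478, 3404 and 3453 at 100 uM for 24 h, against 3174, 3233, 3252, 3052 and 3158 in DMSO. At 24 h all treated wells again lay above all DMSO wells, but the log2 fold change was 0.20 ± 0.098 (SE), adjusted p = 0.122. The 48 h value was 0.20 ± 0.098 (SE), adjusted p = 0.134, with overlapping groups. The 2 Gclc probe sets thus differ in their values at 48 h, and why was not tested.

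The next Srxn1 probe set (1384331_at) gave 10846, 10511, 10614, 10172 and 11105 at 100 uM for 24 h, against 10309.5, 9398, 8347, 8802 and 9428 in DMSO. At 48 h it gave 9959.7, 11916, 10170.0, 10707 and 9912 at 100 uM, against 7463, 7456, 7757, 7079.5 and 7345 in DMSO. The groups overlapped at 24 h and did not at 48 h. Its log2 fold change was 0.21 ± 0.12 (SE), adjusted p = 0.190, at 24 h, where it was not called, and 0.50 ± 0.12 (SE), adjusted p = 0.00102, at 48 h. The third Srxn1 probe set (1381067_at) exceeded the median of 0 of 30 arrays, with a mean signal of 107, and was not tested.

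**Figure D3:**
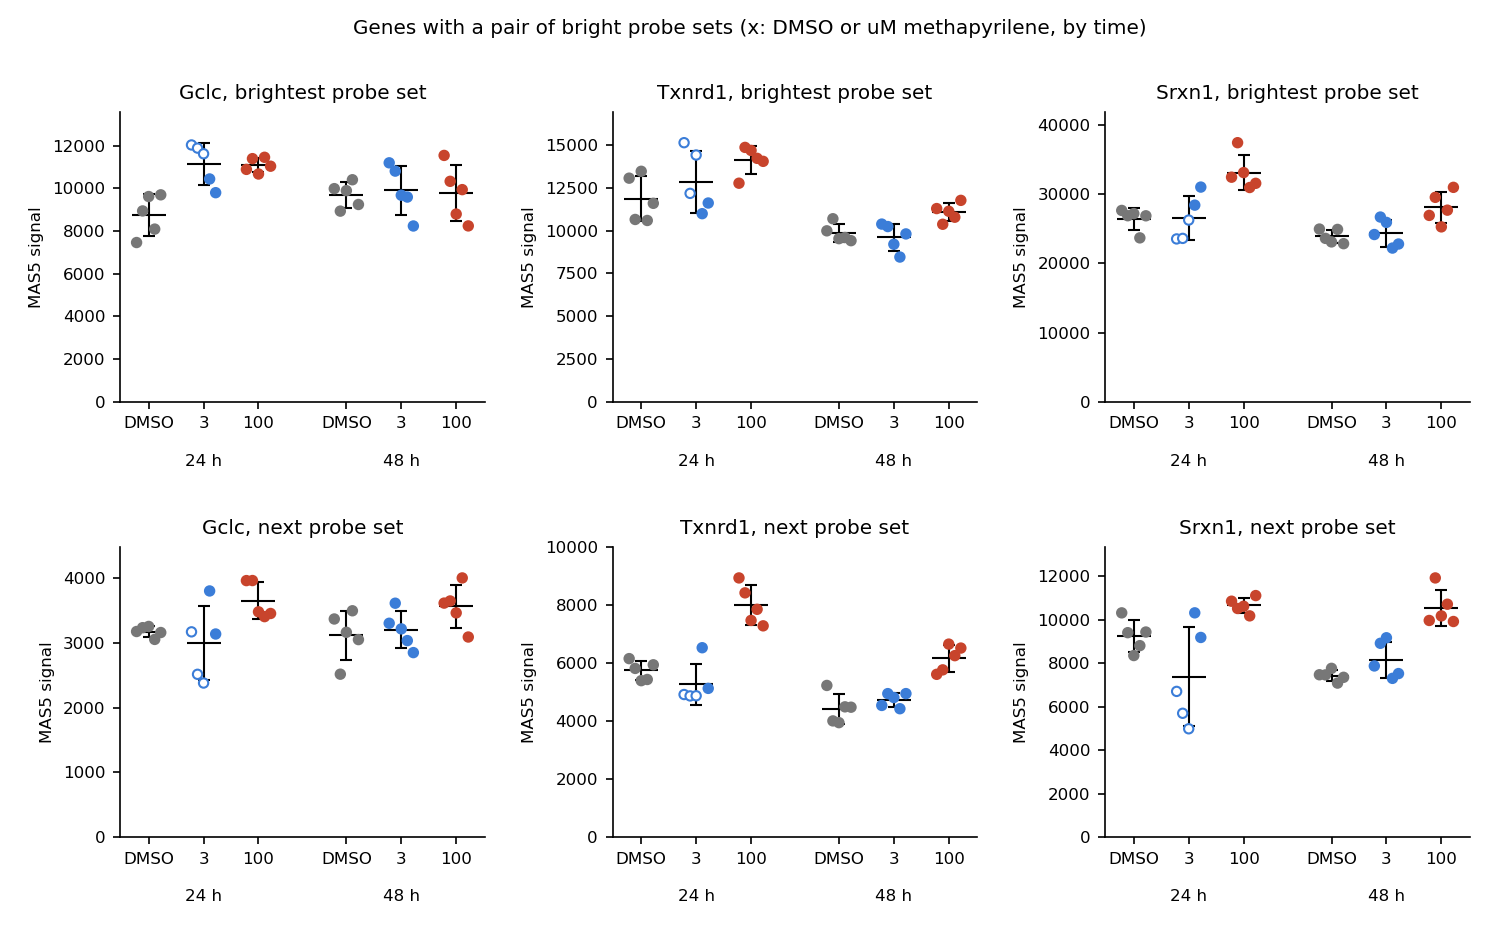
MAS5 signal (linear axis from 0) of the brightest probe set (top) and the next one (bottom) of Gclc, Txnrd1 and Srxn1 in every array, by dose at 24 h and 48 h; bars are means with 1 SD (n = 5), and open points are replicates 1, 2 and 3 of 3 uM at 24 h. By the next probe set of Srxn1 all 3 open points, and of Gclc 2 of them, lie below every other array at 24 h, while by the brightest Gclc probe set they lie at the high end.

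At 3 uM few of the 9 genes were called, and none without the 3 arrays that stood apart. At 24 h 1 gene was called higher (Gclc) and 2 lower (Nqo1 and Gsr), where 2.99% of all genes were called higher, 1.22% lower and 4.22% either way. The median log2 fold change of the 9 genes was -0.00015, beside 0.014 over all genes. Calls over all genes split 306 higher to 125 lower as scaled by the authors, and 225 to 23 with arrays centred on their median. Without replicates 1, 2 and 3 of 3 uM, which leaves 2 wells at that dose, 0 of the 9 genes were called by limma, and over all genes the calls numbered 4.

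Gsr had 5794, 5450.3, 4811, 9135 and 8723 at 3 uM for 24 h, against the DMSO values given above. The first 3 of these wells lay far below all DMSO wells and the other 2 above them. The log2 fold change was -0.36 ± 0.11 (SE), adjusted p = 0.0475, and without those 3 arrays it was 0.082, with an adjusted p of 0.775. With the beta-actin ratio as a covariate it was -0.076. Whether RNA quality or the compound moved Gsr on these arrays was not tested.

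Gclc at 3 uM read 12028, 11881, 11615, 10436 and 9793, so that every treated well exceeded every DMSO well, as for 1.36% of all genes. This gave a log2 fold change of 0.35 ± 0.084 (SE), adjusted p = 0.0184. Without the 3 arrays it was 0.21, with an adjusted p of 0.545, and by the dimmer probe set it was -0.10 ± 0.098 (SE), adjusted p = 0.583. That probe set read 3169, 2513, 2378, 3801 and 3136 in the same wells, with 2 of the 3 arrays low.

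Nqo1 gave 31180.2, 32487, 32125, 34850.1 and 31036 at 3 uM, and all of these lay below all DMSO wells. Such separation downward was found for 0.704% of all genes in this comparison. The log2 fold change was -0.22 ± 0.060 (SE), adjusted p = 0.0336, a 1.16-fold lower signal. Without the 3 arrays it was -0.19, with an adjusted p of 0.425, and under quantile normalization -0.12, with an adjusted p of 0.170. Of the 6 genes not called, Gclm had -0.16 ± 0.052 (SE), adjusted p = 0.0642, and the other 5 lay between -0.023 (Hmox1) and 0.11 (Txnrd1). Without the 3 arrays Gclm was at -0.15, and the other 5 lay between -0.065 (Txnrd1) and 0.20 (Hmox1), none of them called. In Hmox1 those 3 arrays gave the group's lowest signals (22924 to 25492) and replicates 4 and 5 its highest (30086 and 33029.7).

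**Figure D4:**
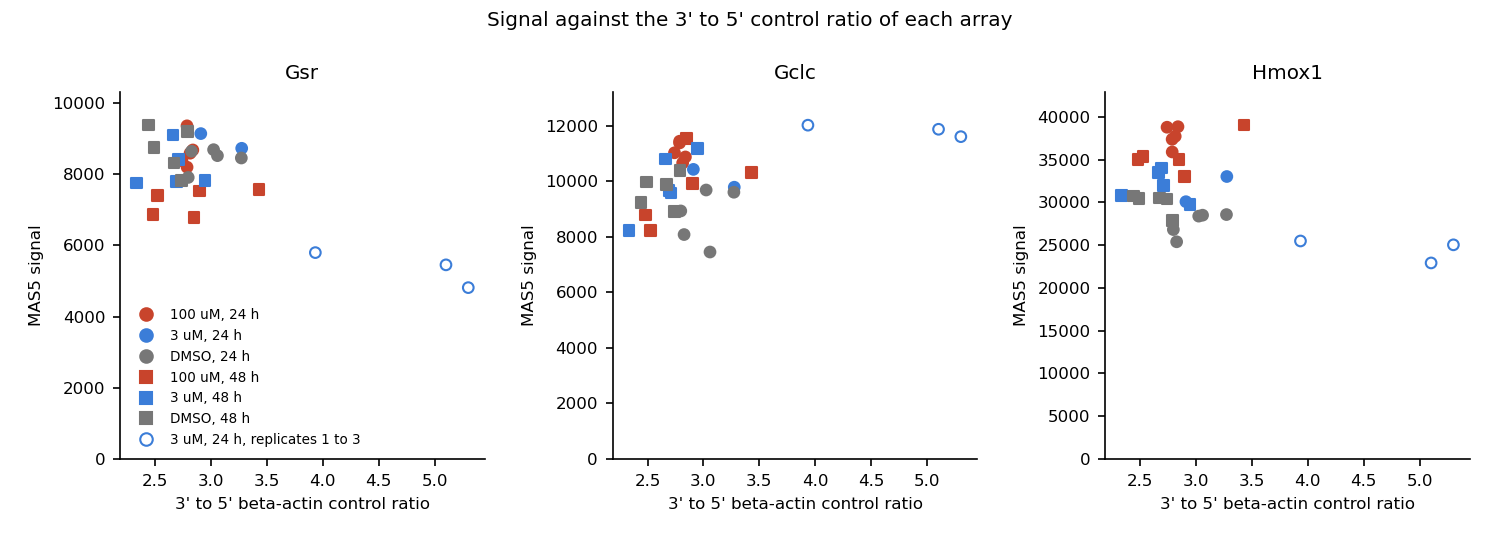
MAS5 signal (linear axis from 0) of Gsr, Gclc and Hmox1, by the brightest probe set, against the 3′ to 5′ ratio of the beta-actin control probe sets, 1 point for each of the 30 arrays; colours give the dose, circles 24 h and squares 48 h. The 3 open circles are replicates 1, 2 and 3 of 3 uM at 24 h, with ratios of 3.93 to 5.30, and they lie low for Gsr and Hmox1 and high for Gclc.

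At 3 uM for 48 h, 0 of the 9 genes were called by limma, 0 had an unadjusted p under 0.05, and 0 were called under any of the alternatives run. Over all genes the calls came to 0.0391%, with 0.0196% higher and 0.0196% lower, and 521 genes had an unadjusted p under 0.05. The 9 log2 fold changes lay between -0.094 (Nqo1) and 0.12 (Gpx2, 95% interval -0.045 to 0.29). No change as large as that of Gpx2 at 100 uM lay within any of the 9 intervals.

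Set directly against 3 uM, 100 uM gave 7 genes higher and 0 lower at 24 h, where 19.8% of all genes were called higher, 19.1% lower and 38.9% either way. At 48 h 5 were higher and 0 lower, with 16.2%, 12.6% and 28.8% of all genes. These comparisons share the 100 uM arrays with those against DMSO and are not independent of them. The 7 at 24 h were Nfe2l2, Nqo1, Hmox1, Gclm, Gpx2, Gsr and Srxn1. The calls of Gsr and Srxn1 were lost without the 3 arrays, with log2 fold changes of -0.049 and 0.15, and those of Nfe2l2 and Nqo1 with arrays centred on their median (0.093 and 0.22). Without the 3 arrays Txnrd1 was called (0.32, adjusted p = 0.00515), and 6 genes in all were higher. Calls over all genes without these arrays are not given here for this comparison. Median centring moved the share of higher among all calls at 24 h to 34.5%, in place of 50.9%. Gpx2 had 0.61 ± 0.082 (SE), adjusted p = 2.7e-07, at 24 h (0.62 without the 3 arrays) and 0.52 ± 0.082 (SE), adjusted p = 6.7e-06, at 48 h. Gclm had 0.39 ± 0.052 (SE), adjusted p = 2.8e-07, at 24 h (0.37 without them) and 0.28 ± 0.052 (SE), adjusted p = 9.1e-05, at 48 h. For Gpx2 and Gclm the 100 uM wells lay above the 3 uM wells without overlap at both times, as did 11.1% of all genes at 24 h and 12.9% at 48 h. At 48 h Nfe2l2, Txnrd1 and Srxn1 made up the other 3, at 0.19, 0.21 and 0.21. Leaving out replicate 4 of 3 uM or replicate 5 of 100 uM at 48 h left 3 genes called, and leaving out replicate 5 of 3 uM left 2.

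Time in culture moved some of the same genes without the compound. In DMSO at 48 h against 24 h, Gpx2 was higher and Nfe2l2, Nqo1 and Txnrd1 were lower, that is 1 and 3 of 9, where 2.56% of all genes were called higher, 1.92% lower and 4.48% either way. Gpx2 averaged 12637 ± 824 at 48 h and 9853 ± 1608 at 24 h (SD, n = 5 each), a log2 difference of 0.37 ± 0.082 (SE), adjusted p = 0.00399. The differences were -0.27 ± 0.062 (SE), adjusted p = 0.00508, in Nfe2l2, -0.23 ± 0.060 (SE), adjusted p = 0.0171, in Nqo1 and -0.26 ± 0.078 (SE), adjusted p = 0.0430, in Txnrd1. Gpx2 (upward, as 3.38% of all genes) and Nqo1 (downward, as 3.07%) did not overlap between the times, and Nfe2l2 and Txnrd1 did. With arrays centred on their median 0 of these 4 were called, and 2 genes were called without replicate 4 or without replicate 5 of DMSO at 48 h.

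Whether the effect of 100 uM changed between 24 and 48 h was tested as an interaction, which limma called for 0 of the 9 genes and for 1.66% of all genes. Unadjusted p-values under 0.05 were found for 3 of them, Gclc, Nqo1 and Hmox1, all with a lower effect at 48 h (-0.34, -0.20 and -0.21), and for 1154 of all 10222 genes. By its other probe set Gclc was at -0.0026 (adjusted p = 0.999). For Gpx2 the effect at 48 h minus that at 24 h was -0.0067 (95% interval -0.24 to 0.23). The change of the 3 uM effect was called for 0 of the 9 and 0 of all genes, with 1 of the 9 (Gclc) and 1256 of all genes at an unadjusted p under 0.05. With array weights 3 of the 9 were called, beside 779 higher and 837 lower over all genes. Without the 3 arrays 0 of the 9 were called by limma.

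Over the 6 groups the order of mean signals differed from gene to gene. Gpx2 was highest at 100 uM for 48 h (19745), which did not overlap the next group, 100 uM for 24 h (15339). The next step down without overlap lay between DMSO at 48 h and 3 uM at 24 h. Nfe2l2, Nqo1, Hmox1, Gclm, Txnrd1 and Srxn1 were highest at 100 uM for 24 h, each overlapping the next group. Gclc was highest at 3 uM for 24 h and Gsr in DMSO at 48 h, again with overlap. Without the 3 arrays that stood apart, Gclc was highest at 100 uM for 24 h (11085, with 3 uM for 24 h next at 10114 and no overlap) and Gsr at 3 uM for 24 h (8929, with overlap), and Nfe2l2 at 100 uM for 24 h no longer overlapped the next group. By the other Gclc probe set 3 uM for 24 h had the lowest mean of the 6 groups (2999). With all arrays, and except for Gpx2, Nqo1 and Gsr, neighbouring groups overlapped at every step. Nqo1 separated once, between DMSO and 3 uM at 24 h, and Gsr once, between 3 uM and 100 uM at 48 h.

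Around these 9 genes, lists of related genes were read at 100 uM against DMSO. Their counts stand beside the 19.9% and 15.8% of all genes called higher and lower at 24 h, and 18.9% and 14.5% at 48 h. The lists were put together with earlier results of these data known and were not tested as sets. Prdx1, Ugt1a6, Ftl1 and Fth1 were not analysed here, and Dpep1 and Cbr3 did not pass the filter. Of 10 regulators of NRF2, 6 rose at 24 h and 5 at 48 h, and 0 fell at either time. Among these, the small MAF partners Maff (0.73 at 24 h and 0.38 at 48 h) and Mafk (0.45 and 0.45) rose. The repressor Bach1 averaged 790.5 ± 138 at 100 uM and 529 ± 41 in DMSO at 24 h, and 773 ± 112 at 100 uM and 408 ± 111 in DMSO at 48 h (SD, n = 5 each). Its log2 fold changes were 0.57 ± 0.18, adjusted p = 0.0137, and 0.95 ± 0.18, adjusted p = 8.4e-05. Cul3, the scaffold of the ligase that marks NRF2, rose by 0.26 and 0.17, and with the mean of its probe sets neither call was made (0.013 and 0.087). The list's median was 0.24 at 24 h and 0.13 at 48 h, and with arrays centred on their median 3 regulators rose at 48 h.

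Among the other glutathione genes more fell than rose: of 16 measured, 2 rose and 6 fell at 24 h, and 1 rose and 8 fell at 48 h, with a median of -0.073 and -0.26. Cth, cystathionine gamma-lyase, which makes cysteine from methionine's sulfur, fell at both times. It averaged 10174 ± 225 at 100 uM and 18982 ± 588 in DMSO at 24 h, and 6702 ± 795 at 100 uM and 14568 ± 906 in DMSO at 48 h (SD, n = 5 each). The 2 groups did not overlap at either time, and the log2 fold changes were -0.90 ± 0.076, adjusted p = 2.1e-11, and -1.13 ± 0.076, adjusted p = 7.9e-14. Oplah, the oxoprolinase that recovers glutamate from glutathione breakdown, fell by 1.32 and 1.20 on the log2 scale. Chac1, which degrades glutathione, fell by 0.20 and 0.55. Slc3a2, the heavy chain of cystine and other amino acid transporters, rose to 32462 ± 1436 at 100 uM, against 22002 ± 546 in DMSO, at 24 h (0.56), and by 0.48 at 48 h.

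Of 7 thioredoxin genes 2 rose and 1 fell at 24 h, and 1 rose and 1 fell at 48 h. Txndc12, a thioredoxin-like protein of the endoplasmic reticulum, rose (0.75 ± 0.055, adjusted p = 8.2e-13, and 0.67 ± 0.055, adjusted p = 8.5e-12). The mitochondrial thioredoxin Txn2 fell by 0.26 and 0.22. The thioredoxin inhibitor Txnip rose at 24 h (0.33) and was at 0.050 at 48 h, where it was not called. The list's median was 0.11 and 0.038, and under quantile normalization 4 rose and 1 fell at 24 h and 3 rose and 1 fell at 48 h. Of 5 genes of NADPH supply 1 rose at 24 h and 1 fell at 48 h. Pgd, of the pentose phosphate pathway, rose at 24 h (0.47) and was at 0.087 at 48 h, and malic enzyme Me1 was at 0.070 at 24 h and fell by 0.26 at 48 h.

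Of 16 other genes known as NRF2 targets in rodents, 7 rose and 2 fell at 24 h, and 4 rose and 6 fell at 48 h, with a median of 0.14 and -0.11. Abcc2, the canalicular exporter of glutathione conjugates, rose (0.42 ± 0.063, adjusted p = 1.7e-06, and 0.57 ± 0.063, adjusted p = 7.0e-09), as did the carbonyl reductase Cbr1 (0.27 and 0.22). The aldehyde dehydrogenase Aldh1a1 fell by 0.88 and 0.87 and the quinone reductase Nqo2 by 0.48 and 0.31. Of 8 genes of heme breakdown and synthesis 0 rose and 3 fell at each time, with a median of -0.098 and -0.13, and under quantile normalization 5 fell at 24 h. Alas1, which starts heme synthesis, fell by 0.34 and 0.49, and Cpox, a later enzyme of it, by 0.30 and 0.27. Fech, which inserts the iron, fell by 0.24 at 24 h and was at -0.20 at 48 h, where it was not called. The heme carrier Hpx was at -0.064 at 24 h and fell by 0.20 at 48 h.

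**Figure D5:**
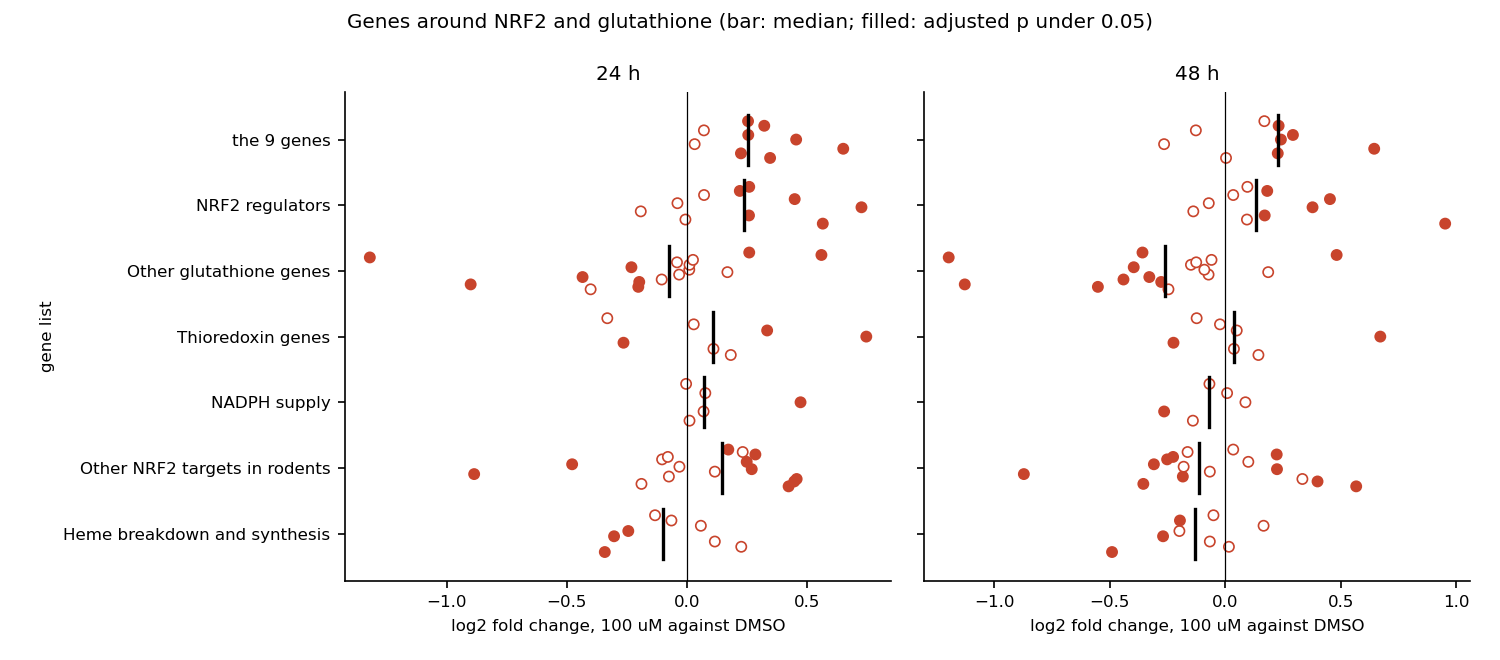
Log2 fold change at 100 uM against DMSO at 24 h (left) and 48 h (right), with 1 point for each measured gene of the 9 genes and of 6 lists of related genes; black bars are medians and filled points have an adjusted p under 0.05. The other glutathione genes reach -1.32 (Oplah) at 24 h, and their median lies at -0.26 at 48 h.

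The genes whose log2 signal ran most alike over the 30 arrays are given as a description, since all arrays and groups are shared. Gpx2 was nearest to Anxa3 (Pearson's r = 0.93), an annexin, and Ifrd1 (0.93), and Hmox1 to Tsen15 (0.93), a subunit of the tRNA splicing endonuclease, and Bnip3 (0.92), a mitochondrial mitophagy receptor. For Gsr the nearest was Yipf4 (0.91), and for Nfe2l2 it was Eif2d (0.91), a translation initiation factor. Gclm had Sap30l (0.89), Srxn1 Rab5if (0.88), Txnrd1 the lysosomal sulfatase Ids (0.86) and Nqo1 the carbonic anhydrase relative Car8 (0.84). Gclc had the lowest leading value, with the histone chaperone Nap1l4 at 0.79. The 9 genes were left out of this search, so it does not tell how alike they ran to one another. After each group's mean was subtracted, r was 0.91 for Gsr and Yipf4, 0.79 for Hmox1 and Tsen15, 0.57 for Gpx2 and Anxa3 and 0.30 for Gclm and Sap30l. These values include the 3 arrays that stood apart. In their group, 3 uM at 24 h, the SD of Gsr (1996) and of Hmox1 (4126) was the largest of the 6 groups. The part of these arrays in the r values was not tested.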

How the data were processed

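RNA was measured on 30 rat whole-genome arrays, 5 for each of 6 groups set by the labels' dose and time. The deposited table holds a linear intensity for each of 31099 probe sets and array, made by the authors with MAS5 per the submitters' processing notes; the version and detection calls are not given in the sources used here. The intensities were used as scaled by the authors and taken to log2. Kept were 17555 probe sets above their array's median on at least 5 arrays, and for each gene its brightest one on average, leaving 10222 genes. Of all probe sets, 20826 had 1 gene symbol, 436 several and 9780 none. Group means were fitted with limma 3.58.1 in R 4.3.3 over all 30 arrays (24 residual degrees of freedom, eBayes with a trend). The 9 comparisons were tested two-sided, with Benjamini-Hochberg adjustment over 10222 genes in each, and a call is an adjusted p under 0.05. Plots used Python 3.11.15 and matplotlib 3.10.9. The fit was tested on simulated data with changes set into 100 uM at 24 h. It recovered 64% of 100 changes of 1.5-fold and 90% of 100 changes of 2-fold, with 10 false calls. In the data 35.7% of all genes were called in this comparison, far more than were changed in the simulation. The simulation also shuffled the spread of each gene separately, which removes differences shared by a whole array. Its recovery and false calls therefore do not describe the real comparisons. Smaller changes were not simulated.

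The 9 genes and the gene lists were chosen with earlier results of these data known. Named were all 9 genes. From each of 6 lists up to 4 genes called at 100 uM were named, by the smallest adjusted p of both times. For each of the 9, the 3 genes outside the 9 with the highest Pearson's r over 30 arrays were found. The leading ones are given in the text. Replicates are wells, and their number limits the precision. Alternatives were other scalings, filters, floors and pseudocounts, probe set rules, eBayes settings, array weights, a block, a covariate, thresholds and arrays left out. Added after seeing the data were the order of the groups without 3 arrays, the brightest other probe set, median centring with a stricter filter, and a fit of the other comparisons without replicates 1, 2 and 3 of 3 uM at 24 h. Promoters are RefSeq's on GRCr8, of 250 bases before and 50 after a start.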

Additional observations from a re-analysis of the deposited data

Results flagged for a closer look

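Of 54 groups of 5 wells (9 genes in 6 groups), 3 held 1 well far from the other 4, by a test on the gap to the nearest well that chance passes in about 1 of 20 groups, so that about this many would be found by chance. Nqo1 read 41546 in replicate 3 of DMSO at 24 h, with the others at 36158 to 37102. Hmox1 read 27858 in replicate 4 of DMSO at 48 h, with the others at 30422 to 30763. Srxn1 read 23686 in replicate 4 of DMSO at 24 h, with the others at 26876 to 27649.

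The effect of 100 uM against DMSO differed between 48 h and 24 h, by limma's interaction test over all genes, for 3 genes of the related lists. Slc7a11, the cystine transporter, changed by -0.62 on the log2 scale (adjusted p = 0.0161), being called higher at 24 h (0.26) and lower at 48 h (-0.36). The 24 h call (adjusted p = 0.0439) was lost in 13 of 27 alternatives and that at 48 h in 1, while the change of effect was lost in 1 of 35. It falls outside the naming rule and was chosen after its values were seen. Txnip changed by -0.28 and Pgd by -0.39 (adjusted p = 0.0406 for both), and these calls were lost in 16 and 19 of 35 alternatives.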

How the results depend on the processing

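Of 2304 values of the 9 genes under alternatives, 2127 kept their side of the threshold, 134 lost a call and 39 gained one. Another 4 changed sign while called under at least 1 of the settings compared. The 2127 include 109 values that changed sign but were called under neither setting. The main fit used no pairing, because the labels give no replicate numbers and those used follow the order of deposit. The labels do not say what a run of array numbers stands for. The runs of array numbers, entered as a block for the order of the arrays, gave 7 calls at 24 h and 6 at 48 h for 100 uM against DMSO, with Gsr added at 48 h (-0.26, adjusted p = 0.0466), and the same number of the 9 genes in the other comparisons. The 4 reversals were Gsr at 24 h without replicates 1, 2 and 3 of 3 uM (0.082 for 3 uM against DMSO and -0.049 for 100 uM against 3 uM) and Gclc at 24 h by its other probe set (-0.10 and 0.30 in the same comparisons). The cause was not tested.

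The number of the 9 genes called moved as follows. For 100 uM against DMSO it was 1 at 24 h and 1 at 48 h with a 1.5-fold minimum. Over all genes that minimum left 397 higher and 574 lower at 24 h, and 346 and 511 at 48 h. At 48 h it was 3 with median centring (3 also with the stricter filter), beside 1246 higher and 1544 lower over all genes. It was 8 with only the compared arrays, beside 2208 and 1649, and 8 with array weights, beside 2345 and 1706. In both of these Nqo1 and Gsr were lower and the rest of the 8 higher. For 3 uM at 24 h it was 0 with median centring, only the compared arrays or the actin covariate. It was also 0 at an adjusted p under 0.01, with a 1.5-fold minimum or without replicates 1, 2 and 3. It was 1 without the filter, with the mean of probe sets or without a trend, and 5 with array weights. Over all genes median centring left 225 higher and 23 lower, an adjusted p under 0.01 left 41 and 13, and the 1.5-fold minimum 13 and 6. The calls were 239 and 97 of 14217 genes without the filter, 207 and 115 with the mean of probe sets and 219 and 85 without a trend. Array weights gave 1600 and 1291. For 100 uM against 3 uM it was 1 at 24 h with a 1.5-fold minimum. At 48 h it was 2 with median centring, 2 at an adjusted p under 0.01 and 0 with a 1.5-fold minimum. Over all genes the 1.5-fold minimum left 368 higher and 637 lower at 24 h, and 248 and 414 at 48 h. At 48 h median centring left 1145 and 1163, and an adjusted p under 0.01 left 1056 and 958. For DMSO over time it was 0 with median centring or a 1.5-fold minimum and 2 at an adjusted p under 0.01. Here the calls over all genes were 127 higher and 116 lower with median centring, and 132 and 110 at an adjusted p under 0.01. The change of the 100 uM effect gave 1 with only the compared arrays or the actin covariate, beside 96 higher and 151 lower, and 77 and 132, over all genes. That of 3 uM gave 3 with array weights, beside 779 higher and 837 lower.

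Leaving out 1 array at a time gave 7 to 7 calls for 100 uM against DMSO at 24 h and 5 to 6 at 48 h, 0 to 4 and 0 to 0 for 3 uM, 6 to 8 and 2 to 5 for 100 uM against 3 uM, 2 to 4 for DMSO over time and 0 to 0 for both changes of effect. For 3 uM at 24 h the count was 1 without replicate 1, 2 or 5 of DMSO and 0 without replicate 1, 2 or 3 of 3 uM. Over all genes, 3 uM at 24 h gave 431 calls as fitted, 0 with only the compared arrays, 2891 with array weights and 1 with the actin covariate. At an adjusted p under 0.01, 5 of the other glutathione genes and 5 of the other NRF2 targets were called at 24 h, and 6 of those targets at 48 h. Each of these lists had 16 measured genes. Of all 10222 genes, that threshold left 1420 higher and 1209 lower at 24 h, and 1358 and 1113 at 48 h. The number of arrays limits what small changes could be detected.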
